A study of Caenorhabditis elegans with 6 samples.

Results

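The RNA of “red-head” F1 germlines, which carried only chromosomes delivered by sperm, was compared directly with the RNA of germlines of their F2 offspring, in *C. elegans* hermaphrodites. The comparison used 4 of the 6 libraries of the series, 2 per generation, chosen by their labels. The 2 GFP::H2B control libraries were never the reference here. They entered the filter on low counts, the scaling and the estimate of the spread between replicates. With them 8117 genes were tested, against 7648 in edgeR on the 4 libraries alone. Their levels are given beside some results.

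All germlines had the HBR1280 genotype, the insertion oxTi75. It carries GFP::H2B, a green histone H2B, under the eft-3 promoter of a translation elongation factor gene, with the tbb-2 3’UTR, and unc-18(+). Control worms were offspring of HBR1280 hermaphrodites and had chromosomes of both parents. “Red-head” F1 worms came from a cross of HBR1280 males with HBR1281 hermaphrodites, which carried the insertions oxTi411 III and ddIs32. In oxTi411 the eft-3 promoter drives TdTomato::H2B, a red histone H2B, with the unc-54 3’UTR, beside Cbr-unc-119(+). In ddIs32 a synthetic gpr-1 with artificial introns is fused to yfp. F2 offspring were progeny of “red-head” hermaphrodites, and the labels give their germlines as identical in genotype to HBR1280. F1 germlines therefore developed in worms whose other cells descended in part from oocyte chromosomes carrying the red transgene and the extra gpr-1, while F2 worms inherited a genome that had already passed through a “red-head” germline. Each library pooled distal gonad arms cut at the bend in late pachytene from day 1 adults grown at 24 °C, so that germ cells in mitosis and meiotic prophase were included together with any attached somatic tissue.

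In a zygote the maternal and paternal pronuclei normally meet and share a spindle. Excess GPR-1, a protein that recruits the pulling machinery of the cell cortex to astral microtubules, draws the pronuclei to opposite poles, and the paternal set can then end up alone in the lineage that makes the germline. The adult hermaphrodite germline runs from mitotic stem cells at the distal tip through meiotic entry and pachytene to oocytes, and produces large amounts of ribosomes, histones and maternal RNA for the embryo. Yolk proteins are made in the intestine and taken up by oocytes, and their RNA is not a product of germ cells.

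Counts on genes totaled 11310273 and 2721055 in the F1 libraries and 7150847 and 3673141 in the F2 libraries, and 7469633 and 4980329 in control. Reads that fell on no gene were 10.7% and 11.6% of the tables in F1, 13.1% and 15.2% in F2, and 13.7% in each control library, so both F2 libraries were above both F1 libraries. Levels are given as CPM after TMM scaling, that is reads on a gene relative to all reads on genes in its library, which are not corrected for gene length, in the order replicate 1, replicate 2. Fold changes are fitted log2 differences, F2 minus F1, with the standard error of the fit. F1 replicate 2 and F2 replicate 2 share a tag in their library names, while replicate 1 of F1 has a tag of its own and replicate 1 of F2 shares its tag with control replicate 1. What the tag marks is not stated. The difference between the tag-sharing libraries is given beside some results, and not for every result where it departs from the fit. Germ cells were well represented in all 4 libraries: all 15 genes of a list of P granule and germline components passed the filter on low counts, and their summed level was 7092 and 8304 CPM in F1 and 8910 and 9270 CPM in F2.

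One gene of the 8117 tested was called different between the generations at an adjusted p of 0.05, the histone H2A gene his-3, which was higher in F2 germlines. This is 0.0123% of the tested genes, and 0% were called lower. At an unadjusted p under 0.05, 487 genes (6%) were higher and 338 (4.16%) were lower in F2, 10.2% in all, where 405.9 genes are expected if none differ. DESeq2 on the same 6 libraries called 74 genes higher and 54 lower. Fitted changes were small for most genes, with a median absolute log2 fold change of 0.22 and 92.8% of the genes under a 2-fold change. At least a 2-fold difference was fitted for 235 genes (2.9%) in the higher and 345 genes (4.25%) in the lower direction. Single libraries of different generations were about as far apart as the F1 replicates: the median absolute log2 difference was 0.24 to 0.30 between an F1 and an F2 library, 0.29 between the F1 libraries and 0.21 between the F2 libraries. Both F2 libraries lay above both F1 libraries for 1657 genes (20.4%) and below them for 1417 genes (17.5%). The plot of fold change against level sets the genes described below within all tested genes.

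**Figure D1:**
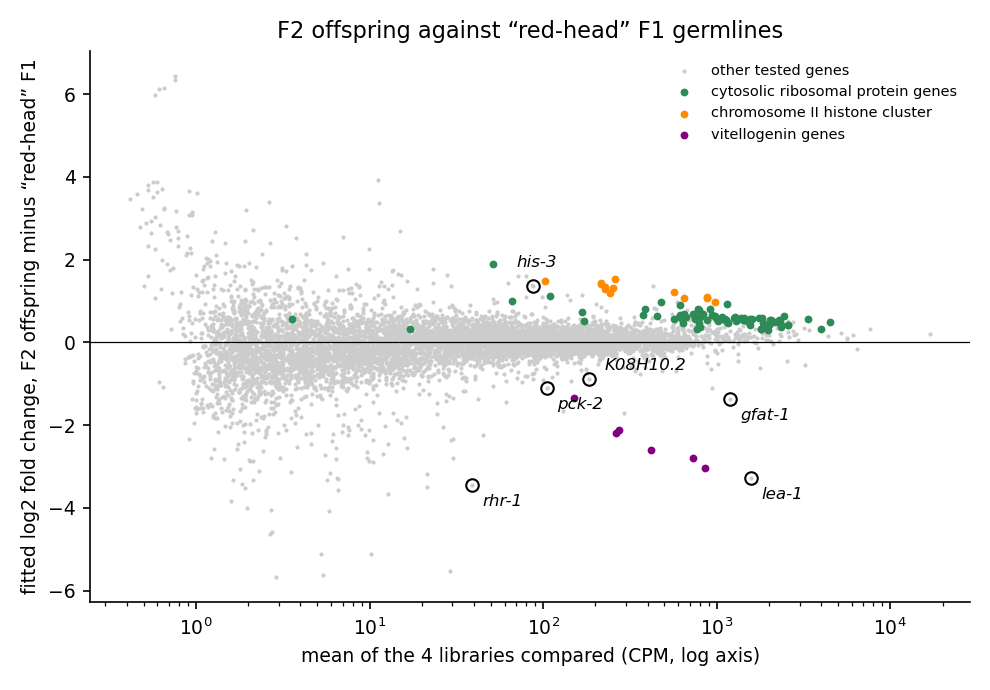
Fitted log2 fold change (F2 offspring minus “red-head” F1) of each of the 8117 tested genes against its mean CPM over the 4 libraries compared, on a log axis. Circles mark his-3, called higher in F2, and 5 genes with an adjusted p of 0.0506 that were lower in F2; the histone genes of the chromosome II run and all 79 tested ribosomal protein genes lie above 0 and the vitellogenin genes below it.

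The histone gene his-3, on chromosome V, encodes H2A, one of the proteins of the nucleosome core. Its level was 49.8 and 48.3 CPM in F1 and 131 and 122.8 CPM in F2, and 36.8 and 37.1 CPM in control. The F2 libraries were above all other libraries, and the fold change was 2.59 (log2 1.37, SE 0.11, adjusted p = 0.0350, edgeR's quasi-likelihood test). The size was stable, with log2 fold changes from 1.33 to 1.42 when 1 library was left out, but the call was not. The adjusted p was 0.0514 without control replicate 1, 0.0572 without control replicate 2, 0.161 without F1 replicate 1, 0.0792 without F2 replicate 1 and 0.0718 without F2 replicate 2, and 0.00863 without F1 replicate 2.

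Other core histone genes with high F2 levels lie together on chromosome II, in a run of 13 genes for H2A, H2B, H3 and H4. Such genes are transcribed for DNA replication, and their mRNAs end in a stem-loop rather than a poly(A) tail. The libraries were made from total RNA after removal of ribosomal RNA, without selection for poly(A). Copies of a histone type are nearly identical in sequence, and how reads matching several copies were treated is not stated. The split of counts among copies is thus uncertain, and the sum over all copies of a type less so. Copies also lie outside the run, such as the H2A genes his-3 and his-7. Their levels and the sum of the run share this limit. Summed over the 13 genes, the level was 3921 and 3099 CPM in F1 and 7885 and 7892 CPM in F2, with 617 and 184 CPM in control. The order of the groups in the run was thus F2, F1, control, with no overlap. The control libraries differed from each other by a larger ratio than those of either generation. Over all 71 core histone genes the summed level was 28593 and 31005 CPM in F1 and 36850 and 38798 CPM in F2. Control was at 30803 and 28952 CPM for that sum, so that the F1 and control ranges overlapped. In all 13 genes both F2 libraries were above both F1 libraries, where 20.4% of all genes were, and 10 of the 13 had an unadjusted p under 0.05. None of the 13 was called, DESeq2 called 1, and on the 4 libraries alone edgeR called 2 and DESeq2 called 13. The median log2 fold change was 1.28, compared with 0.0064 over all tested genes, and ranged over the genes from 0.99 to 1.52. Between the tag-sharing libraries it was 1.49. The cluster had been singled out in earlier results of these data.

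Among the H3 genes of the run, his-42 had 49.9 and 59.4 CPM in F1 and 169.9 and 133 CPM in F2, and 22.3 and 18.2 CPM in control. Its log2 fold change of 1.49 (SE 0.17) had an adjusted p of 0.0506, just short of the threshold. The H2A gene his-16 had 129 and 139 CPM in F1 and 375 and 391.8 CPM in F2 (log2 1.52, SE 0.36, adjusted p = 0.298). Its control libraries, at 22.5 and 6.28 CPM, differed by more than 3-fold. The H4 gene his-10 had 125 and 107 CPM in F1 and 312 and 318 CPM in F2, a log2 fold change of 1.43 (SE 0.53). The H2B gene his-44 had 727 and 587 CPM in F1 and 1245 and 1364 CPM in F2, with the lowest log2 fold change of the 13, 0.99 (SE 0.44). In every gene of the run both F2 libraries stood above both F1 libraries.

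**Figure D2:**
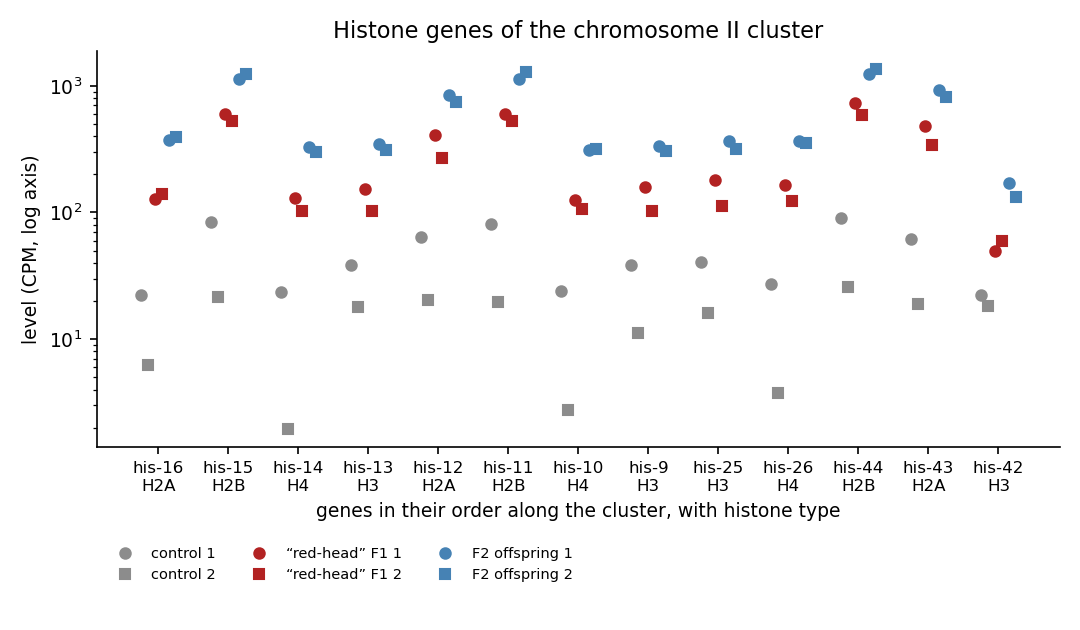
Level (CPM, log axis) of the 13 histone genes of the chromosome II run in each of the 6 libraries, with genes in their order along the chromosome and the histone type under each name. For every gene the F2 offspring libraries (blue) lie above the “red-head” F1 libraries (red) and the control libraries (grey) lie lowest.

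Core histone genes elsewhere in the genome were mixed. Of the 58, 55 were tested, and his-3 was the 1 called. Both F2 libraries were above both F1 libraries for 21 of the 55 and below for 5, and the median log2 fold change was 0.22. At an unadjusted p under 0.05, 9 were higher and 1 was lower, against 6% and 4.16% of all genes. For 10 of the 55 the fold change was at least as large as the lowest of the run, and 4 of these 10 had an unadjusted p under 0.05, his-3, his-7, his-19 and his-21, all on chromosome V. In the other 6, his-29, his-30, his-31, his-33, his-34 and his-69, F1 replicate 1 was lower than every other library and from 9.93-fold to 89.9-fold below F1 replicate 2, with 0.831 to 16.53 CPM against 58.3 to 211 CPM in the other 5 libraries. The H4 gene his-31 had 2.58 and 104.01 CPM in F1 and 126 and 112 CPM in F2, with 134 and 138 CPM in control (log2 1.38), so that F1 replicate 1 alone stood apart. These 6 genes were picked out after their values were seen. The H2A gene his-7 on chromosome V had 22.5 and 50.9 CPM in F1 and 112 and 99.5 CPM in F2, with 21.5 and 19.8 CPM in control (log2 1.60, SE 0.34, adjusted p = 0.286). The F1 libraries differed for his-7, and without F1 replicate 1 its log2 fold change was 1.04. The H2B gene his-58 had 1956 and 2352 CPM in F1 and 2299 and 2627 CPM in F2, overlapping ranges with a log2 fold change of 0.19 (SE 0.16). The X-linked H4 gene his-38 was the 1 gene with a lower level at an unadjusted p under 0.05, with 35.0 and 29.0 CPM in F1 and 20.6 and 20.99 CPM in F2. Genes that act on histone RNA or pack DNA had small fold changes: cdl-1, which binds the histone stem-loop, had 257 and 286 CPM in F1 and 276 and 300.1 CPM in F2. Of 9 linker histone genes 6 were tested, none had an unadjusted p under 0.05, and their median log2 fold change was 0.12. The linker histone gene hil-4 had 464 and 489 CPM in F1 and 518.1 and 518.0 CPM in F2. Of 17 genes for DNA replication 16 were tested and none had an unadjusted p under 0.05, with a median of -0.07, and the helicase subunit gene mcm-7 had 725 and 733 CPM in F1 and 684 and 781 CPM in F2. DESeq2 called 3 of the 68 tested core histone genes.

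In the other direction, 5 genes had an adjusted p of 0.0506 with lower levels in F2, and were called in several other fits. The gene gfat-1 encodes the enzyme for the first step of the hexosamine pathway, which supplies the sugar for chitin and glycosylation. Its level was 1832 and 1585 CPM in F1 and 612 and 717 CPM in F2, with 657 and 665 CPM in control, and the F2 and control libraries overlapped (log2 -1.36, SE 0.14). Phosphoenolpyruvate carboxykinase, the gluconeogenic enzyme encoded by pck-2, had 152 and 135 CPM in F1 and 70.5 and 63.5 CPM in F2 (log2 -1.10, SE 0.12). In control it had 72.3 and 77.9 CPM, less than 2-fold from either F2 library.

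The gene lea-1 encodes a late embryogenesis abundant protein, a family known from desiccation tolerance. It had 2710 and 3006 CPM in F1 and 229 and 358 CPM in F2, 9.76-fold less, with 305 and 641 CPM in control (log2 -3.29, SE 0.37). The Rh-family gene rhr-1, whose relatives carry ammonium or carbon dioxide across membranes, had 81.1 and 60.9 CPM in F1 and 7.82 and 4.89 CPM in F2, with 11.2 and 5.88 CPM in control (log2 -3.44, SE 0.38). In both genes the F1 libraries stood together at about 10-fold the F2 level. The gene with the sequence name K08H10.2, which matched no gene of the annotation used here, had 234 and 245 CPM in F1 and 128 and 133 CPM in F2 (log2 -0.87, SE 0.10). Next in order of p was gln-5, a glutamine synthetase gene, with 479 and 436 CPM in F1 and 259 and 279 CPM in F2 (log2 -0.77, SE 0.10, adjusted p = 0.119). For these 6 genes the tag-sharing libraries gave the same direction, with log2 differences from -3.56 for rhr-1 to -0.64 for gln-5.

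Of the 16 other fits across all genes, lea-1 and rhr-1 were called in 11, as was his-3, gfat-1 and K08H10.2 in 10, pck-2 in 9 and his-42 in 5. RLE scaling in place of TMM gave 5 genes lower in F2, which were these 5.

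**Figure D3:**
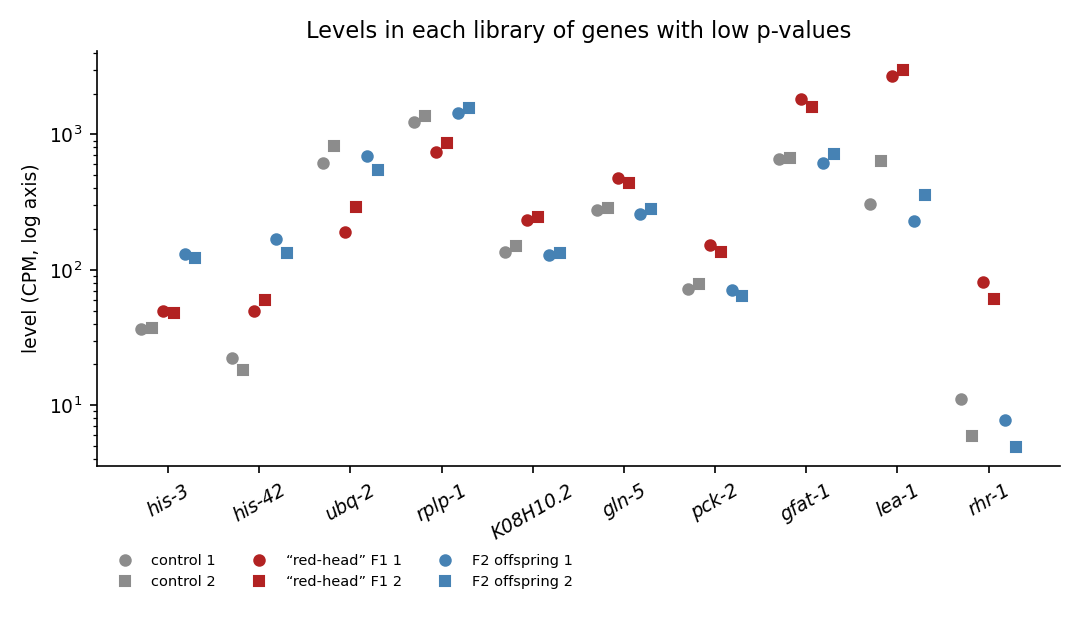
Level (CPM, log axis) of 10 genes with low p-values in each of the 6 libraries, with controls in grey, “red-head” F1 in red and F2 offspring in blue; circles are replicate 1 and squares replicate 2. The F1 and F2 libraries do not overlap for any of the 10 genes, and for gfat-1, pck-2, K08H10.2, gln-5, lea-1 and rhr-1 the control libraries lie near or within the F2 range.

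Genes of cytosolic ribosomal proteins, the structural parts of the translating ribosome, stood higher in F2, by sizes that differed between genes. Of 81 genes 79 were tested, and all 79 had a positive log2 fold change, from 0.31 to 1.89 with a median of 0.56. Both F2 libraries were above both F1 libraries for 67 of them (84.8%) against 20.4% of all genes, and 59 had an unadjusted p under 0.05 against 6% of all genes. None was called by edgeR, DESeq2 called 48, and edgeR without a filter on low counts called 70. Their summed level was 80758 and 87869.7 CPM in F1 and 123254 and 119412 CPM in F2, with 112798 and 102024 CPM in control, so that the control libraries were also above both F1 libraries. Between the tag-sharing libraries the median was 0.51.

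The stalk protein gene rplp-1 had 739 and 859 CPM in F1 and 1446 and 1572 CPM in F2 (log2 0.92, SE 0.13, adjusted p = 0.182). The large subunit gene rpl-22 had 526 and 643 CPM in F1 and 974 and 1019 CPM in F2 (log2 0.77, SE 0.13, adjusted p = 0.247). Of the longer members, rplp-0 had 2502 and 2935 CPM in F1 and 4076 and 3951 CPM in F2 (log2 0.56, SE 0.15). In each of these the F2 libraries were above the F1 libraries. The gap was narrow for rpl-4, a large subunit gene, which had 2990.4 and 4108 CPM in F1 and 4213 and 4708 CPM in F2 (log2 0.33, SE 0.19). The gene ubq-2, which encodes ubiquitin fused to a ribosomal protein, had 190.1 and 289 CPM in F1 and 690.5 and 542 CPM in F2 (log2 1.37, SE 0.24, adjusted p = 0.247), and control was at 619 and 823 CPM. The elongation factor gene eef-1A.1 had 13892 and 17555 CPM in F1 and 16560.3 and 19535 CPM in F2, overlapping ranges with a log2 fold change of 0.20 (SE 0.22).

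Ribosomal protein genes are short, with a median exonic length of 507 nucleotides, and the median fold change was lower in longer classes of genes. Among protein-coding genes other than core histone genes the median log2 fold change was 0.64 for the 7 genes of up to 200 nucleotides and 0.40 for the 147 of 201 to 400. It was 0.24 for 401 to 600 nucleotides, 0.08 for 601 to 1000, -0.01 for 1001 to 2000, -0.04 for 2001 to 4000 and -0.08 for the 621 genes over 4000. The tag-sharing libraries showed the same order, from 0.51 to -0.02. Genes of 300 to 800 nucleotides that were neither core histone nor ribosomal protein genes had a median of 0.16, and for 27.5% of these 1044 genes both F2 libraries were above both F1 libraries. Genes as short as core histone genes, from 312 to 411 nucleotides, had a median of 0.38 in 121 genes, less than the 1.28 of the chromosome II run. The part of gene length in the values of ribosomal protein and histone genes was not tested.

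**Figure D4:**
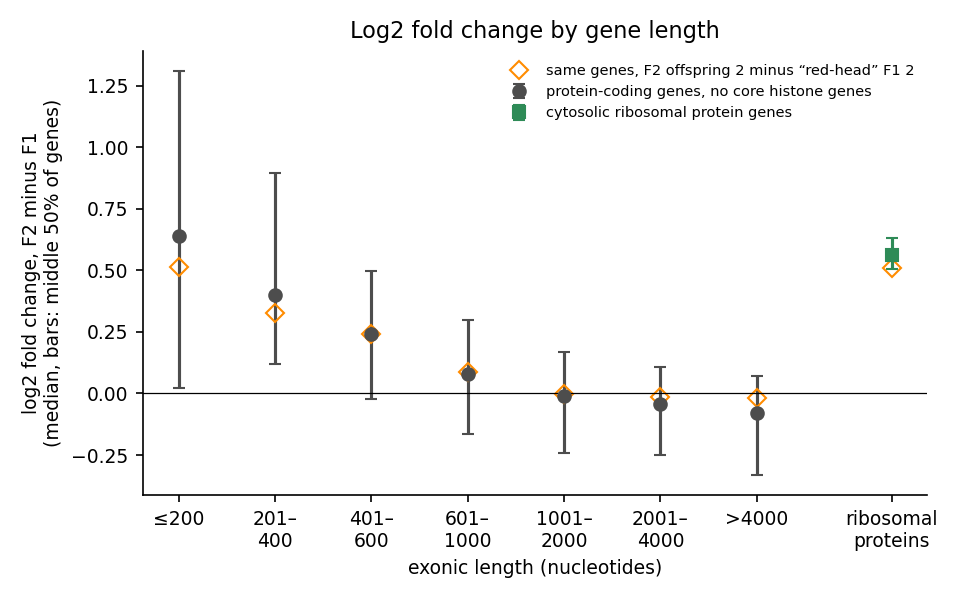
Median log2 fold change (F2 offspring minus “red-head” F1, bars over the middle 50% of genes) by exonic length for protein-coding genes other than core histone genes, and for the 79 cytosolic ribosomal protein genes. Open diamonds give the median difference between the replicate 2 libraries, which share a tag; the median goes from 0.64 in the shortest class to -0.08 in the longest, and is 0.56 for ribosomal protein genes.

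Vitellogenin RNA, which codes for yolk proteins, was lower in F2. All 6 vitellogenin genes had both F2 libraries below both F1 libraries, where 17.5% of all genes did, and 5 had an unadjusted p under 0.05 against 4.16% of all genes. None was called, DESeq2 called 1, and the median log2 fold change was -2.40. Their summed level was 3176 and 6092 CPM in F1 and 1297 and 204 CPM in F2, with 499 and 351 CPM in control. F2 replicate 1 was above control and F2 replicate 2 below it. The median was -1.62 without F2 replicate 2, -4.34 without F2 replicate 1, -1.67 without F1 replicate 2 and -2.91 without F1 replicate 1, and -4.81 between the tag-sharing libraries. In bulk RNA, fewer intestinal cells and less RNA per cell cannot be told apart. The gene vit-6 had 1049 and 2018.2 CPM in F1 and 325 and 41.7 CPM in F2 (log2 -3.04, SE 0.81, adjusted p = 0.321). For vit-2 the levels were 1016 and 1546 CPM in F1 and 293 and 69.6 CPM in F2 (log2 -2.80, SE 0.57, adjusted p = 0.286).

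Other markers of the intestine also leaned to lower levels in F2, with sizes that varied between libraries. Of 15 such markers beside the vitellogenins 8 passed the filter on low counts, and none was called. In 4 of the 8 both F2 libraries were below both F1 libraries, against 17.5% of all genes, 3 had an unadjusted p under 0.05 with lower levels in F2, against 4.16%, and log2 fold changes ranged from -2.55 to 0.01. The summed level of the 15 was 101 and 198 CPM in F1 and 79.8 and 6.03 CPM in F2, with 21.1 and 8.24 CPM in control, so that F2 replicate 2 was far below the other 3. Over all 14 tested intestine markers the median was -2.16, and -4.57 between the tag-sharing libraries. It was -1.30 without F1 replicate 2, -1.37 without F2 replicate 2 and -4.19 without F2 replicate 1. Vitellogenins made up 94.2% to 97.1% of the summed level of intestine markers. The fatty acid desaturase gene fat-7 was at 0 in all 4 libraries, while the gene of the intestinal transcription factor ELT-2 had from 0 to 5 counts. Among single genes with large fitted differences, the aspartyl protease gene asp-3 had 21.5 and 57.95 CPM in F1 and 5.50 and 0.862 CPM in F2 (log2 -3.49, SE 0.87), and asp-5 had 21.8 and 26.003 CPM in F1 and 3.04 and 0.287 CPM in F2 (log2 -3.66, SE 0.73). Leaving out 1 library moved asp-3 from -5.46 without F2 replicate 1 to -2.64 without F1 replicate 2. It moved asp-5 from -6.27 without F2 replicate 1 to -2.95 without F2 replicate 2. The tag-sharing libraries differed by -5.62 for asp-3 and -5.44 for asp-5. The saposin-like protein gene spp-5 had 4.98 and 19.7 CPM in F1 and 1.45 and 0.287 CPM in F2. These genes were low in F2, and their fold changes were imprecise. The part of intestinal RNA in the levels of lea-1, gfat-1, pck-2 and rhr-1 was not tested.

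Markers of hypodermis and body wall muscle were interleaved between the generations. Hypodermis and cuticle markers, 46 of 167 tested, summed to 466 and 1627 CPM in F1 and 873 and 336 CPM in F2. At an unadjusted p under 0.05, 3 of the 46 were lower in F2 and none was higher, against 4.16% and 6% of all genes. Their median log2 fold change of -0.65 was 0.57 without F1 replicate 2 and -2.88 without F2 replicate 1, and -3.27 between the tag-sharing libraries. The collagen gene col-95 had 6.56 and 108 CPM in F1 and 1.59 and 0.575 CPM in F2, so that F1 replicate 2 stood far above the others. Body wall muscle markers, 17 of 19 tested, summed to 858.1 and 1023 CPM in F1 and 1117 and 857.8 CPM in F2, with none at an unadjusted p under 0.05, a median of -0.08 and -1.48 between the tag-sharing libraries. The muscle factor gene hlh-1 was at 0 in all 4. The muscle myosin gene unc-54 had 37.4 and 72.1 CPM in F1 and 60.5 and 12.6 CPM in F2. Of 15 neuron markers 5 were tested and of 6 gonadal sheath markers 4, and none of these had an unadjusted p under 0.05. Relative to each gene's mean over the 4 libraries, the neuron median was 0.20 and 0.17 in F1 and -0.0036 and -0.40 in F2. Sheath markers summed to 93.4 and 33.8 CPM in F1 and 80.2 and 42.8 CPM in F2, higher in replicate 1 of both generations. The median level of each list in each library is plotted.

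**Figure D5:**
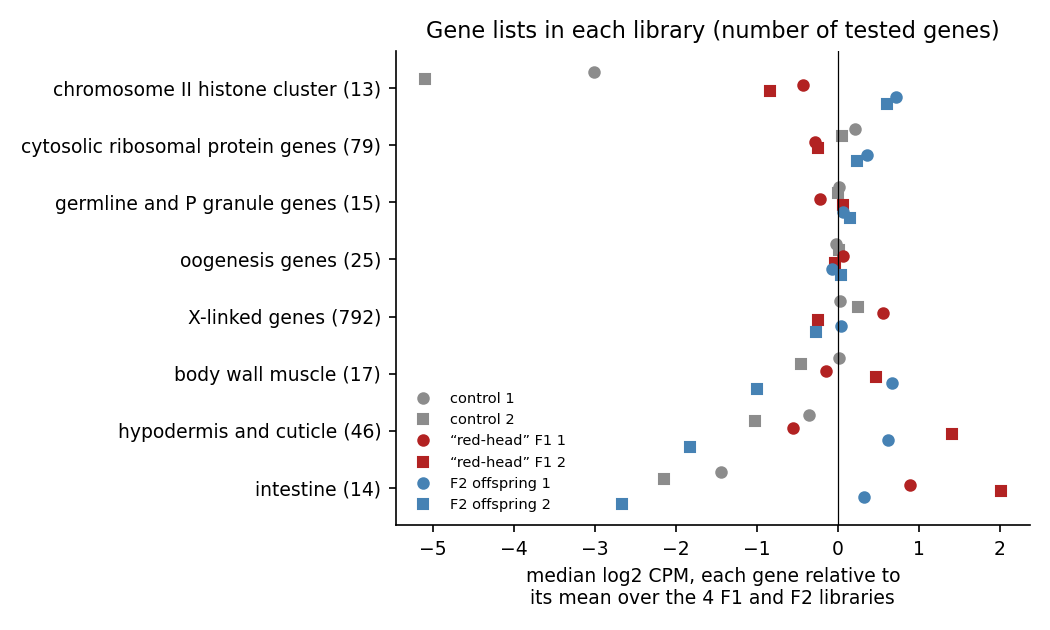
Median, over the tested genes of 8 lists (number in parentheses), of log2 CPM relative to each gene's own mean over the 4 F1 and F2 libraries, for each of the 6 libraries. The F1 and F2 libraries are apart for the histone run, the ribosomal proteins and the intestine markers, while for body wall muscle, hypodermis and X-linked genes the libraries of the generations are interleaved.

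Genes of germ cell identity and meiosis were close to each other in level across the generations. None of the 15 germline and P granule genes was called by edgeR or DESeq2 on all 6 libraries, while edgeR called 1 higher and 2 lower without a filter on low counts and 1 higher without F1 replicate 2. The 2 with an unadjusted p under 0.05, 13.3% of the list against 4.16% of all genes, were meg-3 and meg-4, with lower levels in F2. These encode disordered proteins that build P granules, and both are X-linked. The level of meg-4 was 54.5 and 35.3 CPM in F1 and 24.5 and 25.6 CPM in F2 (log2 -0.87, SE 0.25), and control was at 38.3 and 49.6 CPM. Without F1 replicate 1 the log2 fold change was -0.51 for meg-4 and -0.29 for meg-3. Both F2 libraries were above both F1 libraries for 6 of the 15, where 20.4% of all genes were, and the list's median was 0.20, or 0.04 without F1 replicate 1. The P granule gene pgl-1 had 439.9 and 686 CPM in F1 and 691 and 730.2 CPM in F2, with F1 replicate 1 below the other libraries. The helicase gene cgh-1 had 2939 and 3175 CPM in F1 and 3736 and 3847 CPM in F2 (log2 0.31, SE 0.14).

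Among 13 regulators of stem cells and meiotic entry, 3 were higher and 1 was lower at an unadjusted p under 0.05, beside 6% higher and 4.16% lower over all genes, and the median was 0.09, or -0.0055 without F1 replicate 1. None was called. The Pumilio-family RNA-binding protein genes puf-8 and fbf-1, which act in the choice between proliferation and meiosis, were among the higher. The level of puf-8 was 189 and 211 CPM in F1 and 246 and 283 CPM in F2 (log2 0.40, SE 0.11). The gene sygl-1, a target of the GLP-1 Notch receptor in germline stem cells, had 216 and 166 CPM in F1. It had 125 and 148 CPM in F2 (log2 -0.49, SE 0.15), and its tag-sharing libraries differed by -0.16. The receptor gene glp-1 had 531 and 578 CPM in F1 and 463 and 537 CPM in F2, overlapping ranges with a log2 fold change of -0.15 (SE 0.12). The translational repressor gene gld-1, which promotes meiotic entry and oogenesis, had 1002 and 1453 CPM in F1 and 1567 and 1658 CPM in F2 (log2 0.40, SE 0.18).

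Of 28 genes of meiotic chromosomes, 2 were higher and 1 was lower at an unadjusted p under 0.05, shares near the 6% and 4.16% of all genes, and the median was 0.12, or 0.01 without F1 replicate 1. The chromosome axis gene him-3 had 109 and 125 CPM in F1 and 153 and 142.9 CPM in F2 (log2 0.35, SE 0.11), and syp-2, of the synaptonemal complex, had 48.01 and 41.6 CPM in F1 and 65.6 and 52.0 CPM in F2. The recombinase gene rad-51 had 112 and 119.6 CPM in F1 and 103 and 88.3 CPM in F2 (log2 -0.26, SE 0.11). Of 32 genes of small RNA pathways, 3 were higher and 1 was lower at that p, again near the 6% and 4.16% of all genes. The median was 0.09. None of the 32 was called by edgeR, and DESeq2 on all 6 libraries called 1 higher. The Argonaute gene csr-1, whose product binds small RNAs against genes expressed in the germline, had 686 and 766 CPM in F1 and 1054 and 1011 CPM in F2 (log2 0.51, SE 0.13, adjusted p = 0.298). The nuclear RNAi gene nrde-2 had 224 and 259 CPM in F1 and 313 and 308 CPM in F2. The Argonaute gene ergo-1 had 654 and 685 CPM in F1 and 476 and 579 CPM in F2 (log2 -0.34, SE 0.13).

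Of 25 oogenesis genes, none was higher and 4 were lower at an unadjusted p under 0.05, beside 4.16% lower over all genes, with a median of -0.03. All 4 act in making the eggshell. Over the 25, edgeR called none, and DESeq2 called 4 lower on all 6 libraries and 2 lower on the 4 libraries compared. The chitin synthase gene chs-1 had 1511 and 1539 CPM in F1 and 1053 and 1194 CPM in F2 (log2 -0.44, SE 0.13, adjusted p = 0.347). The egg activation gene egg-3, whose product holds chitin synthase at the oocyte cortex, had 324 and 368.5 CPM in F1 and 220.4 and 236 CPM in F2 (log2 -0.60, SE 0.11, adjusted p = 0.251). The chitin-binding proteoglycan gene cpg-1 had 3351 and 4253 CPM in F1 and 2423 and 2798 CPM in F2 (log2 -0.54, SE 0.17). The same held for cpg-2, with 2729 and 3136 CPM in F1 and 2026 and 2255 CPM in F2 (log2 -0.45, SE 0.15). Control levels of these 4 genes overlapped those of F2, as with chs-1 at 1100.0 and 1199.7 CPM. The yolk receptor gene rme-2 had 2087 and 2018.2 CPM in F1 and 1962 and 2207 CPM in F2, overlapping ranges with a log2 fold change of 0.02 (SE 0.13).

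Of 22 chromatin regulators linked to germline memory, none was higher and 3 were lower at an unadjusted p under 0.05. This stood beside 4.16% lower over all genes, and the median was -0.06. None of the 22 was called by edgeR, and DESeq2 on all 6 libraries called 1 lower. The E2F gene efl-1 had 157 and 225 CPM in F1 and 118 and 79.9 CPM in F2 (log2 -0.93, SE 0.30, adjusted p = 0.383). The gene lin-54, for a DNA-binding subunit of the DREAM complex that works with E2F, had 199 and 292 CPM in F1 and 188 and 149.8 CPM in F2 (log2 -0.53, SE 0.21). In both, F1 replicate 2 was the highest library, and without it the log2 fold change was -0.66 for efl-1 and -0.24 for lin-54. The tag-sharing libraries differed by -1.49 for efl-1 and -0.96 for lin-54. Of 19 heat shock and stress genes 9 were tested, with none at an unadjusted p under 0.05 and a median of 0.17, and the chaperone gene hsp-90 had 4952 and 4560.2 CPM in F1 and 5411 and 5795 CPM in F2 (log2 0.24, SE 0.16).

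Of 9 genes that share parts with the transgenes or act in the spindle force pathway, none had an unadjusted p under 0.05. The gene gpr-1 had 62.7 and 58.3 CPM in F1 and 62.0 and 77.9 CPM in F2, a log2 fold change of 0.20 (SE 0.15). Its near-identical copy gpr-2 had 76.7 and 81.4 CPM in F1 and 65.2 and 87.1 CPM in F2 (log2 -0.06, SE 0.15), and reads of these copies may have been shared between them. The gpr-1 of the transgene has a recoded sequence, and RNA from it may not be counted on the native gene. LIN-5, the partner of GPR proteins at the cortex, had an RNA level of 393 and 429 CPM in F1 and 377 and 436 CPM in F2. The Gα genes goa-1 and gpa-16, which anchor GPR proteins at the membrane, had log2 fold changes of -0.22 (SE 0.11) and -0.07 (SE 0.12).

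Most spermatogenesis genes did not pass the filter on low counts. Of 111 genes 31 were tested. In edgeR on the 4 libraries compared, with no control library in the filter, 10 of these were tested, with a median log2 fold change of -0.04. Most of the 31 thus passed the filter only with the control libraries included. The summed level of the 111 genes was 307 and 308 CPM in F1 and 370 and 306 CPM in F2. Some members were well detected, such as fog-1, which directs germ cells toward sperm, with 31.98 and 34.2 CPM in F1 and 33.6 and 37.7 CPM in F2. Major sperm protein genes held 24 and 23 raw counts in F1 and 328 and 35 in F2, with 707 and 220 in control. F2 replicate 1 and the control libraries thus stood above the rest. The F1 libraries held 11310273 and 2721055 counts on genes, so that their similar raw counts were not similar levels. The gene msp-81 had 0 counts in both F1 libraries, where a count of 0 allows up to 0.249 and 1.11 CPM, and 2.03 and 0.575 CPM in F2. The list's median log2 fold change of 2.52 rested on such genes: it was 0.47 without F2 replicate 1, -0.06 over the 7 genes with at least 10 counts in every library and 0 between the tag-sharing libraries.

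The X chromosome of a hermaphrodite germline is largely silenced until late in oogenesis. The 792 tested X-linked genes had a median log2 fold change of -0.36 and the 7201 autosomal genes one of 0.02. At an unadjusted p under 0.05, 6 X-linked genes were higher and 51 lower, while 475 autosomal genes were higher and 283 lower. No X-linked gene was called by edgeR. DESeq2 on all 6 libraries called 1 higher and 7 lower, of 74 and 54 over all genes. The X-linked median turned with 1 library: it was 0.18 without F1 replicate 1, and -0.01 between the tag-sharing libraries. Relative to each gene's mean over the 4 libraries, the X-linked median was 0.55 in F1 replicate 1, -0.25 in F1 replicate 2, 0.03 in F2 replicate 1 and -0.27 in F2 replicate 2. F1 replicate 1 was thus high, and the other F1 library sat with the F2 libraries.

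Single genes with large fitted differences were mostly low in level. Higher in F2 with no overlap were timm-17B.2, a gene for mitochondrial protein import, with 13.5 and 6.69 CPM in F1 and 44.3 and 28.2 CPM in F2 (log2 1.78, SE 0.53), and T05A12.4, with 25.2 and 56.5 CPM in F1 and 99.2 and 139 CPM in F2 (log2 1.61, SE 0.50). Leaving out 1 library moved timm-17B.2 from 1.41 without F2 replicate 1 to 2.43 without F1 replicate 1, and T05A12.4 from 1.05 without F1 replicate 1 to 2.23 without F1 replicate 2. Lower in F2 was pccb-1, for a subunit of propionyl-CoA carboxylase, which breaks down propionate, with 248 and 145 CPM in F1 and 70.5 and 54.3 CPM in F2 (log2 -1.66, SE 0.26, adjusted p = 0.223). The long noncoding RNA gene tts-1 had 10.4 and 11.9 CPM in F1 and 0.869 and 0.287 CPM in F2, and control at 1.88 and 6.86 CPM was in between. The methyltransferase gene icmt-1 had 9.72 and 10.8 CPM in F1, against 0.435 and 0 CPM in F2 and 0.269 and 0 CPM in control. The F1 libraries stood together, above all others, in tts-1 and icmt-1.

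Control levels lay nearer to F2 than to F1 for 58.7% of all tested genes. Among the genes with an unadjusted p under 0.05 the share was 76.0% of the 487 higher and 74.3% of the 338 lower in F2. By contrast, 0 of the 13 genes of the chromosome II histone run had control nearer to F2, and all 6 vitellogenin genes did. The control libraries enter the filter, the scaling and the estimate of spread, and so the choice of these genes, though not the contrast of F2 minus F1. Control replicate 1 also shares its tag with F2 replicate 1. The median absolute log2 difference between these libraries was 0.12, the smallest of any pair, against 0.21 between the F2 libraries. For these reasons the shares are given as a description.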

How the data were processed

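RNA-seq counts of “red-head” F1 and F2 offspring germlines (2 biological replicates each) were compared, with 2 GFP::H2B control libraries in the fit. The authors mapped single-end reads of 50 bp with TopHat2 against the WS220 transcriptome and deposited unnormalized counts per gene, made with HTSeq. Library totals ranged from 2721055 to 11310273 counts on genes. Rows naming no gene were left out: they held 10.7% to 15.2% of reads as lying on no gene and 1.59% to 2.15% as ambiguous. A further table deposited by the authors, of DESeq2 comparisons (mean level, log2 fold change and adjusted p-value against control), was not used.

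Names, chromosomes and exonic lengths came from Ensembl release 115 and RefSeq (WBcel235). Of 45461 gene names, 44935 matched Ensembl, 1 matched RefSeq only and 525 matched neither. No coordinates were taken from these. The chromosome II histone run holds the histone genes nearest to his-16, each near the next in the study's WS220 annotation.

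Counts were tested in R 4.3.3 with edgeR 4.0.16: filterByExpr, TMM, glmQLFit on all 6 libraries and glmQLFTest of F2 minus F1, with Benjamini-Hochberg adjustment at 0.05. The SE of a log2 fold change is its size divided by the square root of F. All p-values are two-sided and rest on 2 libraries per group. The script was tested on simulated data. Alternatives were RLE and library-size scaling, other filters, 4 libraries, DESeq2 1.42.0, a robust prior, a replicate block, thinning, leaving out each library, and the tag-sharing pair.

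Genes named were those called, per direction the 12 largest changes at an unadjusted p under 0.05 with at least 5 CPM and no overlap and the 8 lowest p, up to 4 most abundant and 2 lowest p per direction in each list, the transgene and spindle genes, the histone run and his-3; not all are printed. Names outside this rule were chosen after their values were seen. Members and gene lists were chosen with earlier results of these data known. Sequences were not used here. Counting limits (3 counts for a count of 0) cover counting error only.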

Additional observations from a re-analysis of the deposited data

How the results depend on the processing

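The number of genes called depended strongly on the fit, and 2 libraries per group limit it. Genes higher in F2 numbered 1 with TMM scaling, 225 without a filter on low counts, 3 in edgeR on the 4 libraries compared, 74 with DESeq2 on all 6 libraries, 78 with DESeq2 on 4 and 2 with a robust prior. Leaving out 1 library gave from 0 to 47, the highest without F1 replicate 2. Genes lower in F2 numbered 0 with TMM scaling, 5 with RLE scaling, 2 by library size only, 158 without a filter, 5 with at least 10 counts in every library, 2 in edgeR on 4 libraries, 54 and 47 with DESeq2 on 6 and 4, 4 with a robust prior and 5 with all libraries thinned to the smallest total. Leaving out 1 library gave from 0 to 22, again the highest without F1 replicate 2. With the replicate number as a block, 1 gene was higher and 6 were lower. Deviations of the replicates from the group means correlated at 0.03 between F1 and F2 and at -0.09 between F1 and control. With 2 libraries per group, these values cannot show whether libraries were paired by replicate number. Between F2 and control, whose replicate 1 libraries share a tag, the deviations correlated at 0.39. Scaling by library size only moved the median log2 fold change of all genes from 0.0064 to -0.10 and turned the split at an unadjusted p under 0.05 from 487 higher and 338 lower to 271 and 718. The ribosomal protein median was 0.45 and that of the histone run 1.16 under that scaling. The causes were not tested. No gene named in the report at an unadjusted p under 0.05 changed direction in any fit that tested it. The smallest library held 2721055 counts on genes, which leaves genes of a few CPM undetermined.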

Other observations

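Families outside the lists were looked at after the values of single genes had been seen, and are given as descriptions. Over all tested genes, 6% were higher and 4.16% lower in F2 at an unadjusted p under 0.05, and both F2 libraries were above both F1 libraries for 20.4%. Among 7 genes of hexosamine and chitin synthesis, gfat-1, chs-1 and gna-2 were lower at that p and 0 were higher. The median of the 7 was -0.33, and 0.01 between the tag-sharing libraries. Of 19 genes of glycolysis and gluconeogenesis, 4 were lower and 1 was higher, with a median of -0.14.

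Families of protein synthesis and turnover had positive medians, as had the shorter classes of protein-coding genes. The part of gene length in the family medians was not tested. Of 64 mitochondrial ribosomal protein genes, 16 were higher and 0 lower at an unadjusted p under 0.05, and both F2 libraries were above both F1 libraries for 36, with a median of 0.30. Of 37 translation initiation and elongation factor genes, 10 were higher and 0 lower at that p, with a median of 0.27 and a lowest log2 fold change of -1.50 for ife-4, a cap-binding protein gene. Of 33 proteasome subunit genes, 8 were higher and 0 lower at that p, and 26 had both F2 libraries above both F1 libraries, with a median of 0.22. In contrast, 63 tested F-box protein genes had a median of -0.07, with 0 higher and 1 lower. All 7 tested aspartyl protease genes were lower at that p, with a median of -3.14, and -5.44 between the tag-sharing libraries. Of 15 tested C-type lectin genes, 8 were lower and 0 higher, with a median of -1.03, and -2.63 between the tag-sharing libraries. The 89 short noncoding RNAs tested, none over 200 nucleotides, had a median of 0.39 that was -1.53 without F2 replicate 1 and 1.35 without F1 replicate 1, and -0.34 between the tag-sharing libraries.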
